A study of Homo sapiens with 24 samples.

Results

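Transcripts of 10 BCL2 family regulators of apoptosis were measured in 4 human cancer cell lines exposed to a cold plasma. The members were taken by symbol from a fixed list of genes, BCL2, BCL2L1, MCL1, BCL2A1, BAX, BAK1, BCL2L11, PMAIP1, BBC3 and BID, and are 10 of the 61533 genes in the deposited tables. All 10 were present and all 10 passed the low-count filter in each line. Cells were exposed to Piezo-CAP, a partly ionised gas near room temperature that is made by a piezoelectric device, for 60 s, and RNA was taken at 24 h. The groups were Cal27 CAP and Cal27 Control, A375 CAP and A375 Control, Fadu CAP and Fadu Control, and Hth83 CAP and Hth83 Control, with 3 libraries each and 24 in all. Control wells had no plasma (0 s), and each line is labelled as genotype WT. Cal27 comes from a tongue squamous carcinoma, A375 from a melanoma, Fadu from a hypopharyngeal squamous carcinoma and Hth83, by its name, from a thyroid carcinoma. Fadu was grown in a different medium (MEM) from the other lines (DMEM). Each line stands for 1 tumour. Whether the 3 libraries of 1 group were grown as separate cultures is unknown, and p-values therefore reflect the spread among these libraries only, which may be technical.

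BCL2 family proteins decide whether the outer mitochondrial membrane is opened, the step that releases cytochrome c and starts the caspases. Pro-survival members (BCL2, BCL-xL from BCL2L1, MCL1 and BFL-1 from BCL2A1) hold the pore-forming effectors BAX and BAK1 in check. BH3-only members carry the death signal: BIM (BCL2L11), PUMA (BBC3) and cleaved BID bind the pro-survival proteins broadly and can activate the effectors, whereas NOXA (PMAIP1) binds mainly MCL1. PUMA and NOXA are known to be induced through the ATF4 and CHOP branch of the integrated stress response, and MCL1 is a short-lived protein on which many carcinomas depend. The values here are transcripts, not protein, pore formation or cell death.

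After plasma, BBC3 was lower in each of the 4 lines and PMAIP1 was lower in Cal27, A375 and Hth83. BAX and BAK1 were higher in A375, Fadu and Hth83 and lower in Cal27. MCL1 was lower in A375, Fadu and Hth83, and BCL2L1 was lower in Cal27 and Hth83 but higher in A375. The falls of PMAIP1 and BAX in Cal27 did not pass on TPM, on which the median log2 fold change of all genes in Cal27 was 0.198. The values, errors and tests behind these statements follow.

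Library totals were 32.3 to 35.6 M (mega) counts in Cal27 CAP and 27.9 to 30.1 M in Cal27 Control, 30.3 to 43.6 M in A375 CAP and 29.3 to 49.5 M in A375 Control, 29 to 35.3 M in Fadu CAP and 30.7 to 37.5 M in Fadu Control, and 30.9 to 34.9 M in Hth83 CAP and 29.8 to 37.9 M in Hth83 Control. The melanocyte factor SOX10 averaged 1147 CPM (counts scaled to a common library total) in A375 Control libraries and at most 0.0603 CPM in the other Control groups. Of 7 melanocyte markers, 2 (SOX10 and MITF) reached 10 CPM in A375 Control libraries. PMEL, MLANA, TYR, DCT and TYRP1 averaged between 0.0589 and 1.82 CPM there, and TYRP1 averaged 15.5 CPM in Fadu Control libraries. In Hth83 Control libraries 9 of 10 squamous markers and 1 of 7 thyroid markers reached 10 CPM, PAX8 averaging 125.9 CPM and thyroglobulin (TG) 0.04 CPM, values that go against a differentiated thyroid line, and Hth83 here means only the labelled line. The summed level of the 10 squamous markers was 1120 to 1146 CPM in Cal27 CAP and 1723 to 1767 CPM in Cal27 Control, 4809 to 5285 CPM in Fadu CAP and 9410 to 9734 CPM in Fadu Control, and 2810 to 3156 CPM in Hth83 CAP and 3841 to 3984 CPM in Hth83 Control. This sum was lower in CAP in these 3 lines, but not every marker was. S100A2 and SFN averaged higher in CAP than in Control libraries of Fadu and Hth83, as did KRT5 in Hth83. The part of the squamous level in the results was not tested. In bulk RNA, fewer cells of a kind and less RNA per cell cannot be told apart.

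The upstream windows of PMAIP1, BBC3, BAX and BCL2A1 are shown. PMAIP1, BBC3 and BAX moved the same way in 3 or 4 lines, and the untreated level of BCL2A1 separated the lines most widely. These windows were chosen because they hold short sequences that regulators discussed later are known to read. The AP-1 site marked in BBC3 is an exception, as its factors are not discussed. RefSeq (build GRCh38.p14) gave 14 windows, each of 250 bases before to 50 after a gene's start, for 9 members. The windows are PMAIP1 on the plus strand at chr18:59899746-59900045, BBC3 on the minus strand at chr19:47232618-47232917, BAX on the plus strand at chr19:48954625-48954924 and BCL2A1 on the minus strand at chr15:79971147-79971446. They are written 5′ to 3′ on the strand of the gene, and capitals mark the CRE half-site in PMAIP1, the E-box and the AP-1 site in BBC3, the E-boxes in BAX, and the C/EBP-ATF element followed by the M-box in BCL2A1.
PMAIP1: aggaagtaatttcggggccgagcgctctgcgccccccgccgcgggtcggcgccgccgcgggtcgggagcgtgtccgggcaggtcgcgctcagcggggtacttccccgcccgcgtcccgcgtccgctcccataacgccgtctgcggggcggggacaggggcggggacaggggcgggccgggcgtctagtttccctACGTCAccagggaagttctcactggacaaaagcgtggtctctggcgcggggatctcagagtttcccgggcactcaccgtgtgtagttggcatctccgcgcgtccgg
BBC3: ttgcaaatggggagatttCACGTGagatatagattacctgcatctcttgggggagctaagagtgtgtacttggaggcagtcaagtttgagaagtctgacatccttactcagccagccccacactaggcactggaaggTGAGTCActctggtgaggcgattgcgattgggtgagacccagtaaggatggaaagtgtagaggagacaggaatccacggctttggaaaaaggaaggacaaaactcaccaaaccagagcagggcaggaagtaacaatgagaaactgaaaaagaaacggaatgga
BAX: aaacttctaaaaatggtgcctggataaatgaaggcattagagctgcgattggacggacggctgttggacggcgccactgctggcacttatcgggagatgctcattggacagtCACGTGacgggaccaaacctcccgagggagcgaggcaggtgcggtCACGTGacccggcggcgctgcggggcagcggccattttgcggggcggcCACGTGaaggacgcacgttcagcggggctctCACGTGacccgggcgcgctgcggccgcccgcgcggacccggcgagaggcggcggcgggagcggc
BCL2A1: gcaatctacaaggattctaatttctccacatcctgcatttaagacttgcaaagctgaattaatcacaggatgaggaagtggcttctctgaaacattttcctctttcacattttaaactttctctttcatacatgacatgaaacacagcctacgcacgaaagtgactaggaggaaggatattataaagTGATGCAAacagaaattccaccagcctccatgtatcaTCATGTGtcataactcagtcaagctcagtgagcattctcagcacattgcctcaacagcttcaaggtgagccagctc

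The motifs were chosen after the windows had been seen, were searched on both strands and did not overlap each other in these windows. PMAIP1 held 1 CRE half-site (TGACGT, here as its reverse complement), the core bound by CREB and ATF factors, starting 56 bases before the gene's start (position -56, the start being 0). That motif was present in 7.98% of all 35116 windows. BAX held 4 E-boxes (CACGTG, bound by MYC and related factors) at -138, -93, -45 and -14, and 7.26% of windows held at least 1. BBC3 held 1 E-box at -232 and 1 AP-1 site (TGANTCA) at -113, and AP-1 sites were found in 7.71% of windows. BCL2A1 held 1 C/EBP-ATF element (TGATGNAA, the composite site of ATF4 and CHOP) at -63 and 1 M-box (TCATGTG, bound by MITF) at -26, which 3.62% and 2.92% of windows held. Among the windows not printed, BCL2L11 held 1 FOXO site (TGTTTAC, as its reverse complement) at -223, a motif in 3.42% of windows. BID held an E-box at -106 in 1 of its windows and at -47 in another that overlaps it. GC boxes (GGGCGG, bound by SP1 and its relatives) lay in BCL2L11, BAK1, PMAIP1, BAX, BID and BCL2L1 windows and in 45.0% of all windows. These matches describe the letters of the windows and show no binding.

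In the untreated cells MCL1 and PMAIP1 were the most abundant members and BCL2 was the least abundant or next to it. In TPM (counts per length, scaled to a common total, so that members can be compared), MCL1 averaged 768 ± 20.4 in A375, 624 ± 18.1 in Hth83, 400.2 ± 5.68 in Fadu and 331 ± 10.9 in Cal27 (SD, n = 3). PMAIP1 averaged 697 ± 17.3 TPM in Hth83, 435 ± 11 in Cal27, 168 ± 14.2 in A375 and 128 ± 2.30 in Fadu. BCL2 was at 0.828 ± 0.0776 TPM in Hth83, 0.696 ± 0.0992 in A375, 0.375 ± 0.0609 in Cal27 and 0.135 ± 0.0167 in Fadu. MCL1 thus made up 88.5% to 98.3% of the summed TPM of the 4 pro-survival members in the untreated lines, and PMAIP1 79.5% to 96.5% of that of the 4 BH3-only members. Between 97.4% and 99.1% of the protein-coding genes with a count lay below MCL1 in each line, against 16.7% to 29.4% below BCL2.

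**Figure D1:**
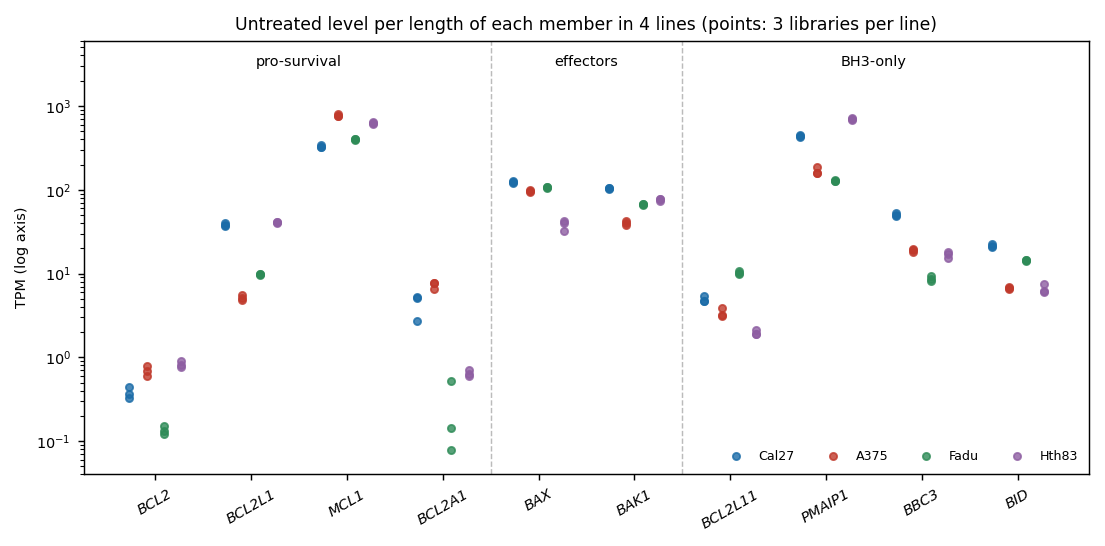
Untreated level of each member in TPM on a log axis, with 3 points per line, 1 per Control library, and the members grouped by role. MCL1 and PMAIP1 stand highest in each line, and BCL2A1 in Fadu spreads from 0.0788 to 0.521 TPM.

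The effectors BAX and BAK1 were expressed in each untreated line, at levels that differed between the lines and, in A375 and Hth83 most, from each other. BAX averaged 124 ± 4.60 TPM in Cal27, 106 ± 1.70 in Fadu, 96.4 ± 3.44 in A375 and 38.2 ± 5.01 in Hth83 Control libraries, and BAK1 104 ± 1.996 TPM in Cal27, 76.1 ± 2.76 in Hth83, 67.3 ± 1.32 in Fadu and 40.1 ± 2.48 in A375. BAK1 was the larger part of the effector transcripts in untreated Hth83 (66.6% of summed TPM) and the smaller part in Cal27, Fadu and A375 (45.5%, 38.7% and 29.4%). Reads of BAK1 are uncertain, since the pseudogenes BAK1P1 and BAK1P2 could share them. BAK1P1 had 4 to 21 counts and BAK1P2 0 counts in a library.

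In the joint fit of the 24 libraries the untreated level differed between the lines for 10 of 10 members (edgeR quasi-likelihood F test over the 4 Control groups), against a background of 93.2% of genes, so this count is near the background. Line and any batch that goes with a line cannot be told apart. Taken pair by pair, Cal27 differed from A375 in 9 members (76.8% of genes), from Fadu in 10 (69.6%) and from Hth83 in 10 (68.7%), A375 from Fadu in 10 (75.6%) and from Hth83 in 8 (71.7%), and Fadu from Hth83 in 10 (69.4%). With the 4 lines placed in order of CPM, 27 of the 30 neighbouring pairs over the 10 members differed at an adjusted p under 0.05. Between 68.7% and 76.8% of all genes passed in a pair of lines. A share of neighbouring pairs over all genes was not taken, so this count is not read as a trait of the members. The pairs that did not pass were MCL1 in A375 over Hth83 (log2 difference 0.06 ± 0.03, adjusted p = 0.125), BCL2A1 in A375 over Cal27 (0.25 ± 0.26, 0.37) and BBC3 in Hth83 over A375 (0.08 ± 0.11, 0.525), all from edgeR. The MCL1 pair depended on the scaling. It passed in edgeR with RLE factors (0.12, adjusted p = 0.00176) and with library size only (0.29, 2.28e-11). It also passed in DESeq2 (0.12, adjusted p = 0.000132) and without Hth83 Control replicate 3 (0.09, adjusted p = 0.0308, edgeR).

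The widest steps were those of BCL2A1 and BCL2L1. BCL2A1, which encodes BFL-1 and is known as an MITF target in melanoma, was 8.03-fold higher in Cal27 than in Hth83 and 2.97-fold higher in Hth83 than in Fadu. The difference between Hth83 and Fadu did not pass without Fadu Control replicate 1 or 2 (adjusted p = 0.0583 and 0.0518, edgeR). MITF averaged 76.3 CPM in A375 Control libraries and 5.31, 2.69 and 3.54 CPM in Cal27, Fadu and Hth83 Control libraries. BCL2A1 in Cal27 was near its level in A375 in CPM. In TPM it was lower in Cal27, at 2.75 to 5.26 against 6.59 to 7.74 in A375 Control libraries. The part of MITF in these levels was not tested. BCL2L1 stood in the order Cal27, Hth83, Fadu, A375, with steps of 1.11-fold, 4.62-fold and 2.03-fold, although in TPM Cal27 (38.4 ± 1.97) was below Hth83 (41.1 ± 0.976). BCL2 stood in the order Hth83, A375, Cal27, Fadu, with steps of 1.41-fold, 1.32-fold and 3.62-fold. The first of these steps did not pass with library size only (adjusted p = 0.062, edgeR), and that between A375 and Cal27 did not pass without Control replicate 2 of Cal27 or of A375 (0.0679 and 0.053). For MCL1 the order was A375, Hth83, Cal27, Fadu, with Hth83 1.58-fold above Cal27 and Cal27 1.09-fold above Fadu; scaled by library size alone, Cal27 was below Fadu by 0.05 on the log2 scale, as it was in TPM.

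Among the BH3-only members, PMAIP1 stood in the order Hth83, Cal27, A375, Fadu, with steps of 1.34-fold, 3.63-fold and 1.23-fold. BBC3 was 3.54-fold higher in Cal27 than in Hth83, and A375 was 2.04-fold above Fadu. BID was highest in Cal27, 1.97-fold above Fadu, which was 1.96-fold above Hth83 and that 1.16-fold above A375. The step between Hth83 and A375 did not pass without Hth83 Control replicate 2 (adjusted p = 0.185, edgeR), with RLE factors (0.0512) or in DESeq2 (0.059), and it turned sign with library size only and in TPM (6.61 ± 0.86 in Hth83 and 6.73 ± 0.146 in A375). BCL2L11 stood in the order Fadu, Cal27, A375, Hth83, with steps of 1.58-fold, 2.04-fold and 1.45-fold. BAX stood in the order Cal27, Fadu, A375, Hth83 and BAK1 in the order Cal27, Hth83, Fadu, A375, with steps between 1.18-fold and 2.12-fold. Cal27 therefore held the highest untreated level of BCL2L1, BAX, BAK1, BBC3 and BID in CPM.

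The comparison of CAP with Control libraries within each line asked which members differed 24 h after plasma. In Cal27, 9 of 10 members were called by edgeR (quasi-likelihood test, adjusted p under 0.05), 2 higher and 7 lower, against a background of 45.1% of genes called, 21.9% higher and 23.2% lower, and BID, 1 of the 7, changed sign on TPM. In A375, 8 of 10 were called, 5 higher and 3 lower, against 50.5% of genes, 25.7% higher and 24.8% lower. In Fadu 8 of 10 were called, 4 higher and 4 lower, against 53.3% of genes, 26.3% higher and 27% lower. In Hth83 10 of 10 were called, 6 higher and 4 lower, against 50.1% of genes, 25.9% higher and 24.2% lower. The median log2 fold change of the 10 members was -0.30 in Cal27, 0.24 in A375, 0.09 in Fadu and 0.48 in Hth83, beside medians of all genes tested of -3.9e-06, -0.02, 0.01 and 0.00346. Of these called members 3, 3, 3 and 6 differed by at least 1.5-fold in Cal27, A375, Fadu and Hth83, against 9.68%, 16.6%, 20.4% and 18.8% of genes. The CAP and Control libraries did not overlap in CPM for 8, 7, 7 and 10 members, against 52.7%, 57.9%, 58.6% and 57.2% of genes.

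Since 45.1% to 53.3% of genes passed, a call by itself places a member among many other transcripts, and sizes are given with each one. Of the genes called in Cal27, 48.5% were higher in CAP, against 62.4% with library size only and 83.1% on TPM, on which the median of all genes moved by 0.198. In A375 the share was 50.9%, against 39.8% and 39.7%, and in Fadu 49.3%, against 61.8% with library size only, which moved the median by 0.114. On TPM, 5 of the members were called in Cal27 in place of 9, against 46.6% of genes. Against a fold of 1.2, edgeR called 4 members in each of Cal27, A375 and Fadu and 10 in Hth83, against 16.8%, 23.6%, 29.3% and 26.8% of genes. DESeq2 called 9, 7, 6 and 10 members in Cal27, A375, Fadu and Hth83, against 37.1%, 38.8%, 39.9% and 40% of the genes it gave an adjusted p.

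**Figure D2:**
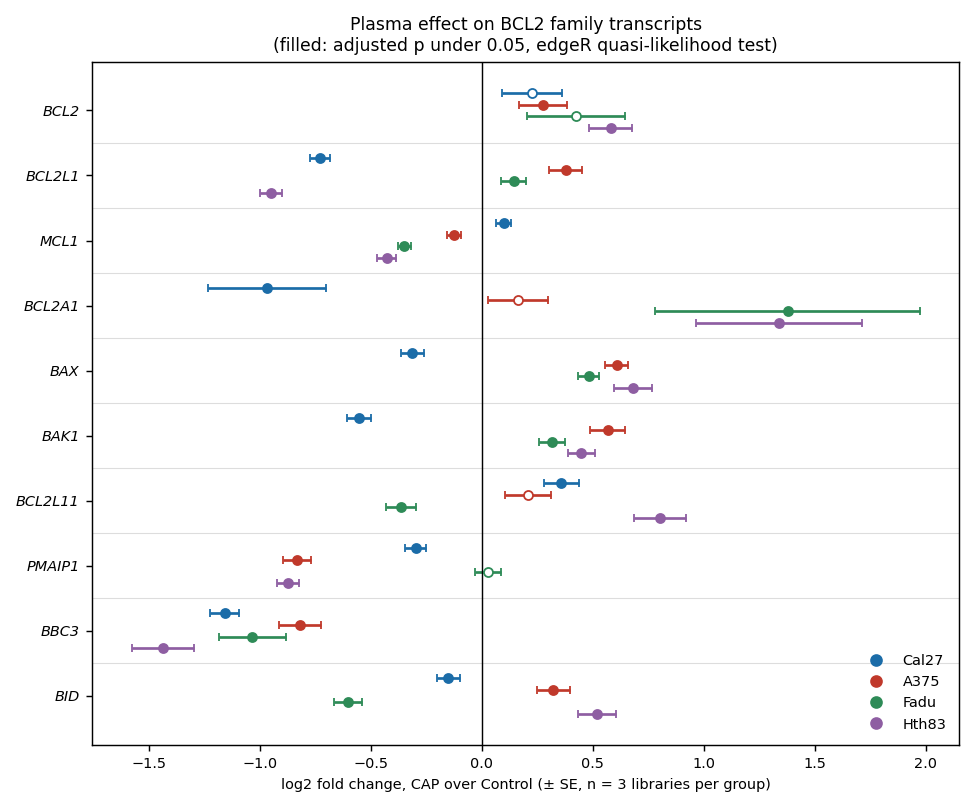
Log2 fold change of each member, CAP over Control, with its SE, in the 4 lines (n = 3 libraries per group); filled points have an adjusted p under 0.05. BBC3 lies left of 0 in each line, between -1.44 and -0.82, and BAX and BAK1 lie right of 0 in each line but Cal27.

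BBC3, which encodes PUMA, fell in the 4 lines and by the largest amount of the 10 members in Cal27 and Hth83. In Cal27 it had 22.03, 23.3 and 25.2 CPM in CAP libraries, against 51.7, 55.7 and 49.99 CPM in Control libraries. Its log2 fold change there was -1.16 ± 0.07 (SE, n = 3 per group; adjusted p = 1.93e-15, edgeR), with the highest CAP library well below the lowest Control library. In A375 it had 8.51, 9.72 and 8.54 CPM in CAP libraries, against 15.9, 14.98 and 16.4 CPM in Control libraries, a change of -0.82 ± 0.10 (adjusted p = 1.88e-08, edgeR). In Fadu, where it was low, it had 4.99, 3.28 and 3.20 CPM in CAP libraries, against 7.73, 8.32 and 7.25 CPM in Control libraries, a change of -1.03 ± 0.15 (adjusted p = 4.47e-09, edgeR). In Hth83 it had 6.56, 5.87 and 3.92 CPM in CAP libraries, against 14.96, 15.7 and 13.6 CPM in Control libraries, a change of -1.44 ± 0.14 (adjusted p = 1.18e-09, edgeR). CAP libraries lay below Control libraries in each line with no overlap, and all 4 falls passed under each alternative tried. The size of the fall differed between lines (interaction F test, adjusted p = 0.0166, edgeR), but without A375 CAP replicate 2 that p was 0.0573, without Hth83 CAP replicate 3 it was 0.0932, and with library size only it was 0.0563. Among pairs of lines, the effect in A375 minus that in Hth83 was 0.60 ± 0.17 (adjusted p = 0.00503, edgeR; 0.054 without Hth83 CAP replicate 3), and the other pairs did not pass.

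PMAIP1, which encodes NOXA, fell in Cal27, A375 and Hth83. In A375 it had 29.2, 27.4 and 29.2 CPM in CAP libraries, against 55.8, 47.5 and 48.9 CPM in Control libraries, a log2 fold change of -0.83 ± 0.06 (adjusted p = 3.78e-12, edgeR). In Hth83, the line with the most of it, it had 111, 123 and 126 CPM in CAP libraries, against 227, 211 and 223 CPM in Control libraries, a change of -0.87 ± 0.05 (adjusted p = 6.56e-15, edgeR). Each CAP library in these lines lay below each Control library. In Cal27 it had 121, 139.5 and 141 CPM in CAP libraries, against 168, 161 and 164 CPM in Control libraries, a change of -0.30 ± 0.05 (adjusted p = 6.01e-06, edgeR). On log2(TPM + 1) the Cal27 change was -0.07 and did not pass (adjusted p = 0.39, limma). Relative to the median of all genes on that scale it was -0.26, which was not tested. In Fadu it had 41.6, 42.2 and 43.9 CPM in CAP libraries, against 42.9, 40.8 and 41.6 CPM in Control libraries, with groups that overlapped and a change of 0.03 ± 0.06 (adjusted p = 0.709, edgeR). The difference of effects was 0.92 ± 0.08 for Fadu minus Hth83, -0.90 ± 0.09 for A375 minus Fadu and -0.34 ± 0.08 for Cal27 minus Fadu (adjusted p = 1.76e-13, 3.83e-12 and 0.000512, edgeR). For A375 minus Hth83 it was 0.02 ± 0.08 and did not pass (adjusted p = 0.966, edgeR).

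BCL2L11, which encodes BIM, rose in Cal27 and Hth83 and fell in Fadu. In Hth83 it had 11.7, 13.3 and 12.2 CPM in CAP libraries, against 6.98, 7.47 and 6.83 CPM in Control libraries, a change of 0.80 ± 0.12 (adjusted p = 7.31e-07, edgeR). In Cal27 it had 26.1, 26.8 and 28.3 CPM in CAP libraries, against 23.2, 20.3 and 19.8 CPM in Control libraries, a change of 0.36 ± 0.08 (adjusted p = 0.000248, edgeR). In Fadu it had 30.6, 29.9 and 27.7 CPM in CAP libraries, against 36.7, 39.02 and 37.6 CPM in Control libraries, a change of -0.36 ± 0.07 (adjusted p = 2.07e-06, edgeR). The groups did not overlap in these 3 lines. In A375 the libraries overlapped, at 12.1 to 14.7 CPM in CAP and 10.6 to 13.5 CPM in Control, and the change of 0.21 ± 0.10 did not pass (adjusted p = 0.0924, edgeR) unless CAP replicate 3 or Control replicate 3 was left out (0.0445 and 0.0191). The effect in Fadu minus that in Hth83 was -1.15 ± 0.13 (adjusted p = 1.68e-10, edgeR). BCL2L11 counts are uncertain, because 10.9% of its exonic bases lie opposite exons of the noncoding gene MIR4435-2HG and whether reads were counted by strand is not known here. MIR4435-2HG averaged 34.8 CPM in CAP and 26.3 CPM in Control libraries of Fadu, and 87.8 CPM in CAP and 82.4 CPM in Control libraries of Hth83; its part in the BCL2L11 counts was not tested.

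BID, whose product is cut by caspase-8 to link death receptors to mitochondria, fell in Fadu and rose in Hth83 and A375. In Fadu it had 28.7, 28.4 and 29.8 CPM in CAP libraries, against 43.5, 43.9 and 44.6 CPM in Control libraries, a change of -0.60 ± 0.06 (adjusted p = 4.64e-14, edgeR). Hth83 had 30.2, 26.4 and 27.9 CPM in CAP libraries, against 18.2, 22.3 and 18.5 CPM in Control libraries, a change of 0.52 ± 0.09 (adjusted p = 8.89e-06, edgeR). Its change was 0.32 ± 0.07 in A375 (adjusted p = 0.00056, edgeR), with CAP libraries at 22.2 to 25.1 CPM and Control libraries at 18.9 to 19.5 CPM, and the groups of these 3 lines did not overlap. In Cal27 the small fall of -0.15 ± 0.05 (adjusted p = 0.0154, edgeR) turned to 0.08 on log2(TPM + 1), or -0.12 relative to the median of all genes, and did not pass without CAP replicate 2 or Control replicate 2 (0.0789 and 0.121). The effect in Fadu minus that in Hth83 was -1.10 ± 0.10 (adjusted p = 8.78e-14, edgeR).

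BAX, the effector that moves to mitochondria from the cytosol, rose in A375, Fadu and Hth83. In A375 it had 77.3, 68.4 and 69.9 CPM in CAP libraries, against 45.8, 46.2 and 49.4 CPM in Control libraries, a change of 0.61 ± 0.05 (adjusted p = 7.54e-11, edgeR). In Fadu it had 76.4, 76.1 and 82.7 CPM in CAP libraries, against 55.5, 56.1 and 56.7 CPM in Control libraries, a change of 0.48 ± 0.05 (adjusted p = 5.85e-15, edgeR). In Hth83 it had 29.7, 32.3 and 32.6 CPM in CAP libraries, against 21.6, 20.4 and 16.8 CPM in Control libraries, a change of 0.68 ± 0.09 (adjusted p = 8.89e-08, edgeR). Each CAP library lay above each Control library in these lines. In Cal27 it was the other way round, at 61.1, 58.4 and 63.7 CPM in CAP libraries, against 76.1, 79.1 and 72.1 CPM in Control libraries. The Cal27 change was -0.31 ± 0.05 (adjusted p = 8.6e-06, edgeR), but -0.08 on log2(TPM + 1), where it did not pass (adjusted p = 0.211, limma). Relative to the median of all genes on that scale it was -0.27, which was not tested.

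BAK1, the effector that resides in the mitochondrial membrane, followed the same directions. It had 37.4, 29.1 and 31.02 CPM in CAP libraries, against 23.3, 21.2 and 20.8 CPM in Control libraries of A375, a change of 0.57 ± 0.08 (adjusted p = 5.35e-07, edgeR). Fadu CAP libraries held 47.8 to 50.8 CPM and Fadu Control libraries 38.8 to 39.98 CPM, a change of 0.32 ± 0.06 (adjusted p = 1.64e-06, edgeR). Hth83 CAP libraries held 58.4 to 60.1 CPM and Hth83 Control libraries 41.9 to 44.8 CPM, a change of 0.45 ± 0.06 (adjusted p = 2.24e-07, edgeR). In Cal27 it had 48.6, 45.3 and 49.9 CPM in CAP libraries, against 70.8, 71.8 and 68.1 CPM in Control libraries, a change of -0.55 ± 0.05 (adjusted p = 4.05e-10, edgeR). On log2(TPM + 1) the Cal27 change was -0.31, or -0.51 relative to the median of all genes. The groups did not overlap in any of the 4 lines. The effect in Cal27 minus that in A375, Fadu and Hth83 was -0.90, -0.81 and -0.99 for BAX (adjusted p = 2.79e-12, 2.85e-11 and 7.3e-13, edgeR). For BAK1 these differences were -1.10, -0.88 and -0.998 (adjusted p = 2.99e-14, 4.3e-12 and 1.08e-13, edgeR). Between A375, Fadu and Hth83 no pair of effects passed for BAX or BAK1, the differences lying between -0.18 and 0.21. The value of 0.21 ± 0.09, for BAK1 in A375 minus Fadu (adjusted p = 0.0688, edgeR), passed in 15 of the 24 fits that left out 1 library, with adjusted p between 0.00719 and 0.256 over them.

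**Figure D3:**
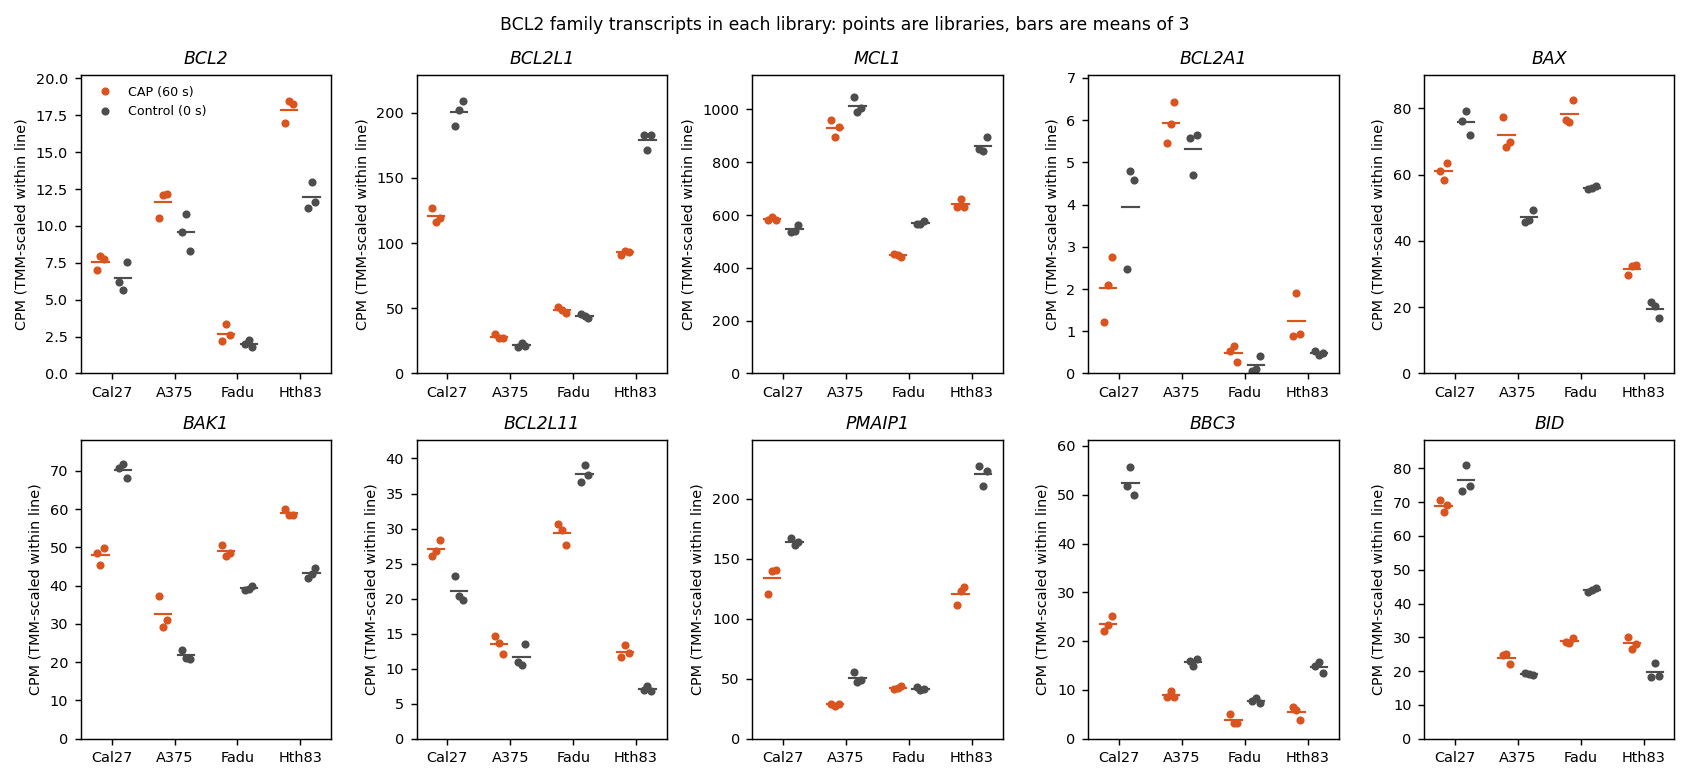
CPM of each member in each library, scaled by TMM within its line, with CAP left of Control (points, 3 libraries per group; bars, means; each panel starts at 0). CAP and Control points of BBC3 and BAK1 do not overlap in any line, and those of BCL2L1 in Hth83 lie at 91.1 to 94.2 and 171 to 183 CPM.

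MCL1, the most abundant pro-survival transcript, fell in Hth83, Fadu and A375. In Hth83 it had 631, 662 and 632 CPM in CAP libraries, against 851, 841 and 896 CPM in Control libraries, a change of -0.43 ± 0.04 (adjusted p = 6.27e-10, edgeR). In Fadu it had 452, 450.3 and 440 CPM in CAP libraries, against 566, 566 and 576 CPM in Control libraries, a change of -0.35 ± 0.03 (adjusted p = 2.85e-18, edgeR). In A375 it had 961, 897 and 934 CPM in CAP libraries, against 1048, 990.2 and 1004 CPM in Control libraries, a change of -0.12 ± 0.03 (adjusted p = 0.00246, edgeR). Each CAP library lay below each Control library in these lines. In Cal27 CAP libraries lay above Control libraries, with 582, 591 and 582 CPM in CAP libraries, against 537, 539.6 and 562 CPM in Control libraries. That rise of 0.10 ± 0.03 (adjusted p = 0.0129, edgeR) did not pass without CAP replicate 2, Control replicate 1 or Control replicate 2 (0.0632, 0.0859 and 0.0688). On log2(TPM + 1) the rise was 0.33, or 0.14 relative to the median of all genes. The Cal27 effect differed from each of the A375, Fadu and Hth83 effects, by 0.25 ± 0.05, 0.43 ± 0.05 and 0.53 ± 0.05 (adjusted p = 3.86e-05, 1.39e-10 and 3.84e-13, edgeR).

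BCL2L1 fell in Hth83 and Cal27 and rose in A375. In Hth83 it had 91.1, 94.2 and 93.3 CPM in CAP libraries, against 183, 171 and 183 CPM in Control libraries, a change of -0.95 ± 0.05 (adjusted p = 2.72e-16, edgeR). In Cal27 it had 127, 116 and 119 CPM in CAP libraries, against 189.7, 202 and 209 CPM in Control libraries, a change of -0.73 ± 0.04 (adjusted p = 4.33e-15, edgeR). These 2 lines, with the most BCL2L1 when untreated, had CAP libraries well below the Control libraries. In A375 it had 29.9, 27.4 and 26.9 CPM in CAP libraries, against 20.4, 23 and 21.4 CPM in Control libraries, a change of 0.38 ± 0.07 (adjusted p = 6.01e-05, edgeR). In Fadu it had 51.3, 48.9 and 46.2 CPM in CAP libraries, against 45.3, 44.2 and 42.9 CPM in Control libraries, a change of 0.14 ± 0.06 (adjusted p = 0.0262, edgeR) that did not pass without CAP replicate 1, CAP replicate 2, Control replicate 2 or Control replicate 3 (0.166, 0.0501, 0.0562 and 0.105) or in DESeq2 (0.0683). The difference between lines had the smallest adjusted p of the 10 members (interaction F test, adjusted p = 1.41e-22, edgeR), with the A375 effect 1.31 ± 0.08 above that of Hth83. BCL2L1 counts are uncertain where 43.0% of its exonic bases lie opposite the antisense gene ABALON, which had 0 to 8 counts in a library. The gene counts also pool its long, pro-survival and short, pro-death splice forms.

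BCL2 and BCL2A1 were the low members. BCL2, the founding member of the family, rose in Hth83, with 16.96, 18.5 and 18.2 CPM in CAP libraries, against 11.2, 13 and 11.6 CPM in Control libraries, a change of 0.58 ± 0.10 (adjusted p = 8.33e-06, edgeR). Its change of 0.28 ± 0.11 in A375 passed (adjusted p = 0.0311, edgeR) although the groups overlapped, at 10.5 to 12.2 CPM in CAP and 8.31 to 10.8 CPM in Control, and it did not pass without CAP replicate 2, CAP replicate 3, Control replicate 1 or Control replicate 3 (0.0833, 0.121, 0.078 and 0.171). The changes in Cal27 and Fadu were 0.23 ± 0.14 and 0.43 ± 0.22 and did not pass (adjusted p = 0.181 and 0.0965, edgeR), though Cal27 without Control replicate 3 and Fadu without CAP replicate 1 gave 0.046 and 0.0466. Of the 10 members BCL2 alone showed no detectable difference of effect between lines (interaction F test, adjusted p = 0.243, edgeR).

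BCL2A1 changes carried wide errors at its low level. In Cal27 it had 1.22, 2.10 and 2.77 CPM in CAP libraries, against 2.47, 4.80 and 4.58 CPM in Control libraries, overlapping groups with a change of -0.97 ± 0.27 (adjusted p = 0.00508, edgeR) that did not pass on log2(TPM + 1) (adjusted p = 0.0658, limma). In Hth83 it had 0.897, 1.90 and 0.943 CPM in CAP libraries, against 0.539, 0.443 and 0.481 CPM in Control libraries, a change of 1.34 ± 0.37 (adjusted p = 0.00349, edgeR) that was 0.91 without CAP replicate 2, the highest library, and did not pass then (0.076). In Fadu it rested on 9 to 24 counts in CAP and 2 to 12 counts in Control libraries, which overlapped, and its change of 1.38 ± 0.60 (adjusted p = 0.0437, edgeR) ranged between 0.97 and 2.45 with single libraries left out, the highest value being without Control replicate 3. It did not pass without CAP replicate 1 or 2 or Control replicate 1 or 2 (0.115, 0.222, 0.231 and 0.193) or in DESeq2 (0.165). In A375, with the most BCL2A1, the groups overlapped at 5.45 to 6.42 CPM in CAP and 4.70 to 5.64 CPM in Control, and the change of 0.16 ± 0.13 did not pass (adjusted p = 0.329, edgeR).

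The effect of plasma differed between the lines for 9 of 10 members by the interaction F test, against a background of 56.9% of genes. Beside the values already given, the adjusted p was 3.22e-13 for MCL1, 7.18e-05 for BCL2A1, 2.92e-14 for BAX, 1.15e-15 for BAK1, 7.53e-10 for BCL2L11, 1.21e-14 for PMAIP1 and 5.37e-14 for BID (edgeR). Cal27 differed from A375 in 7 members, from Fadu in 8 and from Hth83 in 8, against 35.5%, 38.4% and 35% of genes. A375 differed from Fadu in 5 members and from Hth83 in 5, against 36% and 27.3% of genes (with library size only, from Fadu in 3, against 37.1% of genes), and Fadu from Hth83 in 4, against 35.7% of genes.

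Ratios within a library do not depend on how libraries are scaled. The TPM ratio of PMAIP1 to MCL1, NOXA's main partner, was 0.906 to 1.06 in Cal27 CAP and 1.27 to 1.36 in Cal27 Control libraries. It was 0.133 to 0.137 in A375 CAP and 0.210 to 0.233 in A375 Control libraries, and 0.771 to 0.875 in Hth83 CAP and 1.09 to 1.17 in Hth83 Control libraries. In these 3 lines the ratio was lower in each CAP library. In Fadu it was higher, at 0.403 to 0.437 in CAP and 0.315 to 0.331 in Control libraries, where PMAIP1 did not pass and MCL1 fell.

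The TPM ratio of BAX to BCL2 averaged 228 ± 19.1 in Cal27 CAP and 337 ± 64.2 in Cal27 Control libraries (SD, n = 3), groups that did not overlap. In the other lines the groups overlapped. The ratio averaged 176 ± 26.7 in A375 CAP and 141 ± 24.4 in A375 Control, 844 ± 179 in Fadu CAP and 794 ± 97.7 in Fadu Control, and 49.7 ± 0.654 in Hth83 CAP and 46.4 ± 7.09 in Hth83 Control libraries. In both CAP and Control, the Hth83 libraries were lowest and the Fadu libraries highest. These ratios are a description and were not tested.

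**Figure D4:**
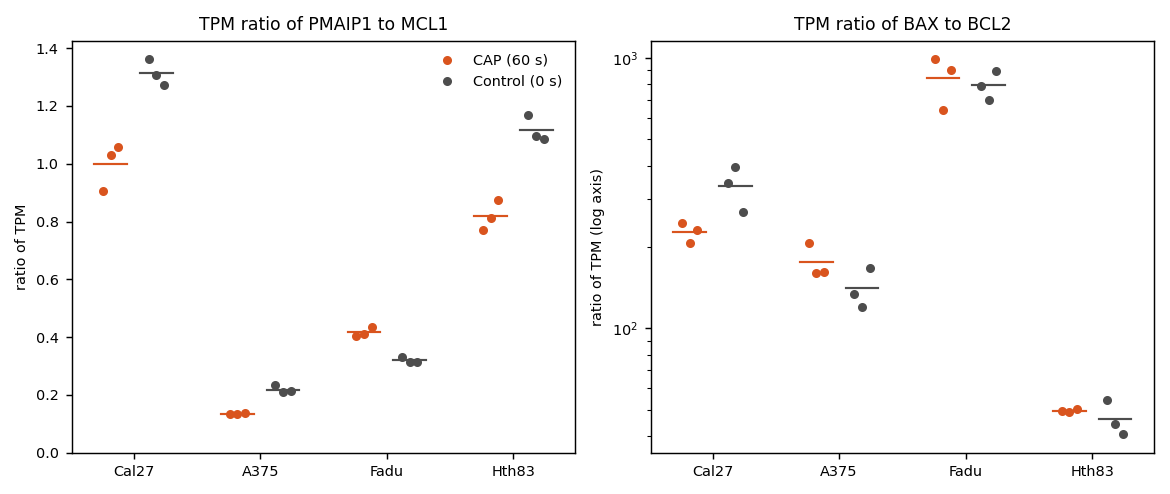
TPM ratio of PMAIP1 to MCL1 (left, linear axis from 0) and of BAX to BCL2 (right, log axis) in each library, CAP left of Control, with means as bars (n = 3 per group). The left ratio is lower in CAP in Cal27, A375 and Hth83 and higher in Fadu, and the right ratio overlaps between groups except in Cal27.

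The makeup of each role was compared as shares of summed TPM (means, n = 3). BCL2L1 gave 6.10% of the pro-survival TPM in Cal27 CAP and 10.3% in Cal27 Control, and 4.35% in Hth83 CAP and 6.16% in Hth83 Control. It went the other way in A375, with 0.933% in CAP and 0.664% in Control, and in Fadu, with 3.33% in CAP and 2.39% in Control. BBC3 gave 5.60% of the BH3-only TPM in Cal27 CAP and 9.81% in Cal27 Control, 2.78% in Fadu CAP and 5.34% in Fadu Control, and 1.57% in Hth83 CAP and 2.33% in Hth83 Control, and in A375 its shares lay within 1 SD of each other, at 9.07% in CAP and 9.59% in Control. BID gave 7.17% in A375 CAP and 3.42% in A375 Control, 2.38% in Hth83 CAP and 0.917% in Hth83 Control, but 6.19% in Fadu CAP and 8.88% in Fadu Control. A share also moves with the TPM of the other members of its role. PMAIP1 averaged 88.9 TPM in A375 CAP and 168 in A375 Control, and 398 in Hth83 CAP and 697 in Hth83 Control. BID itself averaged 7.92 TPM in A375 CAP and 6.73 in A375 Control, and 9.89 in Hth83 CAP and 6.61 in Hth83 Control. Among the effectors BAX gave 58.6% in Cal27 CAP and 54.5% in Cal27 Control, and 71.1% in A375 CAP and 70.6% in A375 Control, a difference within 1 SD. PMAIP1 remained the largest BH3-only share in each group, from 79.5% in Fadu Control to 96.5% in Hth83 Control.

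The members did not move as 1 block. After each line's mean was subtracted, Pearson's r of log2 CPM over the 24 libraries was 0.877 between BAX and BAK1, -0.904 between MCL1 and BAX, -0.801 between BCL2 and BBC3 and -0.781 between BCL2L1 and BCL2L11. Among 9908 protein-coding genes of at least 10 CPM, the 2 whose pattern was most like each member by the same measure were DNMBP (0.851) and TTF1 (0.843) for BCL2, AREG (0.974) and MYDGF (0.972) for BCL2L1, JMY (0.982) and CEP120 (0.979) for MCL1, and LDHB (0.785) and CSRP2 (0.778) for BCL2A1. They were TOMM40 (0.973) and THOP1 (0.972) for BAX, PSMC3 (0.966) and ADRM1 (0.96) for BAK1, ATP6V1A (0.941) and TM7SF3 (0.928) for BCL2L11, CEBPG (0.968) and SARS1 (0.957) for PMAIP1, ITPRIP (0.955) and TKFC (0.951) for BBC3, and GPC1 (0.949) and OAS3 (0.928) for BID. The 24 points share lines, libraries and the split into CAP and Control, so these values are a description.

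Around the 10 members, the counts of each list below stand beside the shares of all genes called higher and lower, 21.9% and 23.2% in Cal27, 25.7% and 24.8% in A375, 26.3% and 27% in Fadu and 25.9% and 24.2% in Hth83. The lists are small, and several counts were close to these shares. Of the 12 transcription regulators listed, 2 rose and 6 fell in Cal27, 4 rose and 5 fell in A375, 3 rose and 7 fell in Fadu and 5 rose and 3 fell in Hth83, with medians of -0.13, 0.03, -0.31 and -0.02. DDIT3, which encodes CHOP, changed by -1.08 ± 0.06 in Cal27, -2.23 ± 0.10 in A375, -1.64 ± 0.08 in Fadu and -4.00 ± 0.09 in Hth83 (log2, CAP over Control), and ATF4 by -0.31 ± 0.03 in Cal27, -0.40 ± 0.04 in A375, -0.61 ± 0.03 in Fadu and -0.99 ± 0.05 in Hth83, each passing edgeR's test. MYC fell in Cal27 and Fadu and rose in A375 and Hth83, with -0.57 ± 0.03 in Cal27, 0.27 ± 0.09 in A375, -0.09 ± 0.04 in Fadu and 0.13 ± 0.05 in Hth83. E2F1 had -0.05 ± 0.06 in Cal27, 0.71 ± 0.05 in A375, 0.24 ± 0.05 in Fadu and 0.84 ± 0.06 in Hth83, and all but the Cal27 value passed.

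Downstream of the mitochondrion, 3 caspase and apoptosome genes rose and 3 fell of 15 tested in Cal27, close to the shares of all genes there. Of 15 tested, 6 rose and 2 fell in A375 and 4 rose and 7 fell in Fadu, and 8 rose and 1 fell of 14 in Hth83, and the medians in the 4 lines were -0.02, 0.19, -0.01 and 0.37. APAF1, the scaffold of the apoptosome, had 0.85 ± 0.09 in Cal27, 0.01 ± 0.05 in A375, -0.61 ± 0.06 in Fadu and 0.78 ± 0.06 in Hth83, and all but the A375 value passed. CASP2, which encodes caspase-2, rose in Cal27, A375 and Hth83 and fell in Fadu, with 0.49 ± 0.06 in Cal27, 0.54 ± 0.05 in A375, -0.11 ± 0.04 in Fadu and 0.54 ± 0.08 in Hth83. CYCS, which encodes cytochrome c, fell in Cal27 and rose in A375, Fadu and Hth83, with -0.18 ± 0.03 in Cal27, 0.75 ± 0.04 in A375, 0.42 ± 0.03 in Fadu and 0.20 ± 0.05 in Hth83.

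Of the 6 caspase inhibitors, 6 fell in Fadu (median -0.36), 4 fell and 1 rose in Hth83, 2 rose and 1 fell in Cal27 and 3 rose in A375. XIAP, which binds active caspases, rose in Cal27 and A375 and fell in Fadu and Hth83, with 0.52 ± 0.05 in Cal27, 0.12 ± 0.04 in A375, -0.47 ± 0.04 in Fadu and -0.49 ± 0.06 in Hth83. BIRC3 fell in Fadu (-0.42 ± 0.05) and Hth83 (-0.67 ± 0.09) and did not pass in Cal27 (0.01 ± 0.05) or A375 (-0.08 ± 0.12). BIRC6 had 0.73 ± 0.05 in Cal27, 0.10 ± 0.04 in A375, -0.29 ± 0.04 in Fadu and 0.08 ± 0.05 in Hth83, and all but the Hth83 value passed. BIRC5, which encodes survivin, had 0.05 ± 0.04 in Cal27, 0.30 ± 0.05 in A375, -0.22 ± 0.03 in Fadu and 0.54 ± 0.05 in Hth83, and all but the Cal27 value passed.

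Among the other BCL2 family genes 1 rose and 4 fell of 10 tested in Cal27, 1 rose and 4 fell of 11 in A375, 4 rose and 3 fell of 11 in Fadu and 2 rose and 5 fell of 11 in Hth83. The BH3-only gene BIK fell in Cal27 (-0.48 ± 0.06) and Hth83 (-0.24 ± 0.09), rose in Fadu (0.20 ± 0.07) and did not pass in A375 (0.82 ± 0.44). BAD, another, fell in Cal27 (-0.58 ± 0.08), rose in A375 (0.25 ± 0.10) and Fadu (0.29 ± 0.13) and did not pass in Hth83 (0.10 ± 0.08). BNIP3L, a mitophagy receptor, rose in Cal27 and fell in A375, Fadu and Hth83, with 0.29 ± 0.05 in Cal27, -0.71 ± 0.06 in A375, -1.25 ± 0.05 in Fadu and -0.68 ± 0.06 in Hth83. Its relative BNIP3 fell in A375 (-1.05 ± 0.04) and Hth83 (-0.52 ± 0.07) and did not pass in Cal27 (0.06 ± 0.04) or Fadu (-0.03 ± 0.05). BCL2L13 had -0.06 ± 0.04 in Cal27, -0.30 ± 0.05 in A375, -0.55 ± 0.05 in Fadu and -0.37 ± 0.05 in Hth83, and all but the Cal27 value passed. The pro-survival gene BCL2L2 fell in A375 (-0.30 ± 0.05) and Hth83 (-0.76 ± 0.06) and did not pass in Cal27 (0.02 ± 0.05) or Fadu (-0.07 ± 0.04).

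Of 4 enzymes that set MCL1 turnover, 4 rose in Cal27, 1 fell in A375, 1 rose and 3 fell in Fadu and 1 rose and 2 fell in Hth83. USP9X, the deubiquitinase that stabilises MCL1, rose in Cal27 and fell in A375, Fadu and Hth83, with 0.32 ± 0.04 in Cal27, -0.23 ± 0.04 in A375, -0.44 ± 0.04 in Fadu and -0.11 ± 0.04 in Hth83. HUWE1, a ligase that marks MCL1 for destruction, rose in Cal27 (0.32 ± 0.06), fell in Fadu (-0.55 ± 0.03) and did not pass in A375 (-0.05 ± 0.03) or Hth83 (0.08 ± 0.04). FBXW7, another such ligase gene, had 0.32 ± 0.07 in Cal27, 0.01 ± 0.07 in A375, 0.22 ± 0.07 in Fadu and -0.44 ± 0.09 in Hth83, and all but the A375 value passed. The ligase gene BTRC had 0.34 ± 0.06 in Cal27, 0.10 ± 0.06 in A375, -0.16 ± 0.07 in Fadu and 0.26 ± 0.07 in Hth83, and all but the A375 value passed. Of the 3 VDAC channels of the outer mitochondrial membrane, 3 rose in A375 and 3 in Fadu, 1 rose in Hth83 and 1 fell in Cal27. VDAC3 had 0.07 ± 0.06 in Cal27, 0.60 ± 0.05 in A375, 0.19 ± 0.03 in Fadu and 0.50 ± 0.04 in Hth83, and all but the Cal27 value passed. VDAC2 had -0.30 ± 0.04 in Cal27, 0.14 ± 0.04 in A375, 0.23 ± 0.03 in Fadu and -0.07 ± 0.05 in Hth83, and all but the Hth83 value passed. VDAC1 rose in A375 (0.21 ± 0.03) and Fadu (0.15 ± 0.03) and did not pass in Cal27 (-0.08 ± 0.03) or Hth83 (0.09 ± 0.04).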

How the data were processed

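Libraries came from a SMARTER mRNA-Seq preparation read on a HiSeq3000 instrument, per the labels' protocols. Alignment used HISAT2 and GRCh38, per the submitters' processing notes. Nothing states the counting tool, annotation release or strand setting. For each line the authors deposited raw counts and TPM for 61533 genes, and within a table each TPM equalled the count over 1 gene length, rescaled per library. Symbols came from the table supplied (42045 identifiers) or GENCODE 29 (16375), and 3113 identifiers had none. Mitochondrial genes with a count numbered 0.

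Counts were tested in R 4.3.3 with edgeR 4.0.16, 3 CAP against 3 Control libraries within each line. Genes passed filterByExpr (minimum count 10, total 15), TMM factors were used, and p-values of the robust quasi-likelihood test were adjusted by Benjamini-Hochberg over all genes tested (17371 in Cal27, 19604 in A375, 19152 in Fadu and 17279 in Hth83), with a threshold of 0.05. Differences between lines and untreated levels came from 1 joint fit of 24 libraries (23642 genes), with pairwise p-values adjusted over all genes within each contrast. TPM levels and ratios were described without a test. Libraries of a group differed by more than counting error (chi-square per degree of freedom 2.965 to 8.699). The labels name no batch.

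The members and gene lists were chosen with earlier results of these data known. All 10 members are named, and of each further list the 2 genes with the smallest p per line; values of DDIT3, ATF4 and MITF outside that rule were added after they were seen. Some genes and 1 gene list are not reported here. Alternatives were RLE factors, scaling by library size alone, other filters (none, or CPM of 1), DESeq2 1.42.0, a replicate block, removal of a gene length trend, a fold of 1.2, the joint fit, limma 3.58.1 on log2(TPM + 1) and log2(TPM + 0.1), and each library left out. The fits were tested on simulated data. No sample or column was left out.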

Additional observations from a re-analysis of the deposited data

Results flagged for a closer look

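The effect of plasma differed between the 4 lines for 9 of the 10 members, by edgeR's interaction F test over 24 libraries, with 56.9% of all genes passing the same test. The adjusted p was 1.41e-22 for BCL2L1, 1.15e-15 for BAK1, 1.21e-14 for PMAIP1, 2.92e-14 for BAX, 5.37e-14 for BID, 3.22e-13 for MCL1, 7.53e-10 for BCL2L11, 7.18e-05 for BCL2A1 and 0.0166 for BBC3. BCL2L1 fell in Hth83 and Cal27 and rose in A375, and its small rise in Fadu did not pass in DESeq2 or with some single libraries left out. BAX and BAK1 rose in A375, Fadu and Hth83 and fell in Cal27, though the fall of BAX did not pass on TPM. BID fell in Fadu and rose in Hth83 and A375, and BCL2L11 rose in Hth83 and Cal27 and fell in Fadu. MCL1 fell in Hth83, Fadu and A375, and its small rise in Cal27 did not pass with some single libraries left out. PMAIP1 fell in Hth83, A375 and Cal27, where the fall did not pass on TPM, and showed no detectable change in Fadu. The values for BCL2A1 rest on low counts. BBC3 fell in each line, and its difference is one of size that did not pass without A375 CAP replicate 2 (0.0573) or Hth83 CAP replicate 3 (0.0932).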

How the results depend on the processing

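Of the 35 member values called in a single line, 20 were called under each alternative tried for them, 15 were not called under at least 1, and 1, BID in Cal27, changed sign. The same tally was not made over all genes, so these counts have no background. BBC3 in the 4 lines, PMAIP1 in A375 and Hth83, MCL1 in Fadu and Hth83, BCL2L1 in Cal27 and Hth83, BAX in A375, Fadu and Hth83, BAK1 in Cal27, A375 and Hth83, BID in Fadu and Hth83, and BCL2 and BCL2L11 in Hth83 made up the 20. Against a fold of 1.2, edgeR called 2927 genes in Cal27, 4626 in A375, 5616 in Fadu and 4636 in Hth83, with 4 members called in each of Cal27, A375 and Fadu and 10 in Hth83, since it asks for a larger change. In limma on log2(TPM + 1), 5 members were called in Cal27, against 46.6% of genes, so this count is near the background. On log2(TPM + 0.1) and without a filter 5 were also called, and shares of all genes are not given for these. With library size only, 3 members differed between A375 and Fadu, against 37.1% of genes, in place of 5, against 36%. The causes of these shifts were not tested. With single libraries left out, members called ranged between 7 and 10 in Cal27, 7 and 8 in A375, 6 and 8 in Fadu, and 9 and 10 in Hth83. All genes called then ranged between 6956 and 7820 in Cal27 and between 8739 and 9676 in A375. The ranges were 9431 to 9737 genes in Fadu and 7792 to 8506 in Hth83.

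BID in Cal27 was 0.0819 on log2(TPM + 1), with or without a filter, and 0.0852 on log2(TPM + 0.1). PMAIP1 in Fadu, not called, was -0.0842 with the gene length trend removed and -0.0843 with the replicate block as well. With library size only, the effect of A375 minus Fadu on BAX was -0.0505, A375 minus Hth83 on BAK1 -0.00319 and on PMAIP1 -0.0797, and the untreated levels were -0.0485 for MCL1 (Cal27 over Fadu), 0.15 for BBC3 and 0.0199 for BID (A375 over Hth83). Without a filter A375 minus Hth83 on PMAIP1 was -0.0021. Single libraries left out turned the sign of differences that did not pass: Cal27 minus Fadu on BBC3 ranged between -0.242 and 0.0822, A375 minus Hth83 on BAX between -0.167 and 0.00255 and on PMAIP1 between -0.0314 and 0.106, Fadu minus Hth83 on BCL2A1 between -0.337 and 1.10, and untreated BCL2A1 in Cal27 over A375 between -0.401 and 0.00945. The causes of these sign changes were not tested.

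No pairing by replicate number was detected. Same-numbered CAP and Control libraries had deviations with r between -0.0224 and 0.0371, and differently numbered ones between -0.0534 and 0.0482. With 3 libraries per group these values cannot show whether cultures were grown in pairs. A replicate block gave 7704 calls in Cal27, 9946 in A375, 10183 in Fadu and 8652 in Hth83, against 7832, 9900, 10200 and 8657 without it, and 9, 8, 7 and 10 members called.

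Low counts limited BCL2A1 in Fadu, where a library had 2 to 24 counts of it at totals between 29 and 37.5 M.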
